A study of Mus musculus with 4 samples.

Results

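The genes followed here are 10 genes of the glutathione and thioredoxin antioxidant systems, namely Nfe2l2, Keap1, Gclc, Gclm, Gsr, Gpx4, Txnrd1, Prdx1, Srxn1 and Nqo1. They were taken by symbol, and all 10 were found among the 16051 genes of the deposited table. Their mRNA was compared between differentiated 3T3-L1 cells, a mouse embryonic fibroblast line (labelled NIH SWISS) that can form adipocytes in culture, treated for 48 h with 100 μM risperidone, an antipsychotic that blocks dopamine and serotonin receptors, and control cells. The labels call the controls untreated, whereas the methods give them the vehicle DMSO, and both groups had first been taken through a differentiation mixture of isobutylmethylxanthine, dexamethasone and insulin. Each group had 2 libraries, and each library was made from the pooled RNA of 3 cultures, so the p-values here measure the spread between pools and not between single cultures.

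The 4 libraries held between 15883712 and 16374119 estimated counts. A count of 0 allows up to 3 counts at this depth, which is 0.183 to 0.189 on the scale of CPM (counts scaled to the library total), by counting error only. The cells carried the labelled adipocyte identity only in part. Of 13 adipocyte markers, 5 averaged 1 FPKM or more over the libraries (a level corrected for depth and transcript length), while Adipoq and Lep had 0 or 1 count in each library. Of 9 preadipocyte and fibroblast markers, 8 were at or above that level. Both marker lists held genes that went up and genes that went down with the treatment, at 60.0% and 75.0% of their tested genes called against 64.3% of all tested genes. The adipocyte genes Fabp4 and Lipe went from 1079 and 1360 and from 352 and 304 counts with DMSO to 492 and 586 and to 146 and 137 with risperidone, although Pnpla2 was called higher and Pparg and Cd36 were not called. Of the 8 preadipocyte and fibroblast genes tested 4 were higher and 2 lower, with Dlk1 going from 873 and 923 to 2406 and 2408 counts, and Col3a1 from 9328 and 9416 to 4360 and 4670. The part of these marker changes in the results below was not tested. The extraction text of the labels speaks of retina. Of 8 retina markers, 4 were in the deposited table and 0 reached that level. Risperidone replicate 2 stood apart from the other libraries. The counts of 16 kidney markers summed to 3967 in it, against 83.2 in risperidone replicate 1 and 100 and 111 in the DMSO libraries. A pathway gene named below is therefore also given without that library where this changed its call. Some that kept their call but changed in size are given too, and others are not. In bulk RNA, fewer cells of a type and less RNA per cell cannot be told apart.

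As background, Nfe2l2 encodes Nrf2, a transcription factor that binds antioxidant response elements together with small Maf proteins. Keap1 encodes the adaptor that hands Nrf2 to a Cul3 ubiquitin ligase and keeps its protein low until oxidants or electrophiles modify Keap1. The other genes are well-known Nrf2 targets or work beside them. Gclc and Gclm form the enzyme of the first and limiting step of glutathione synthesis, Gsr returns oxidised glutathione to its reduced form with NADPH, and Gpx4 uses glutathione to detoxify lipid hydroperoxides in membranes. Txnrd1 reduces cytosolic thioredoxin, Prdx1 spends it to remove hydrogen peroxide, Srxn1 repairs over-oxidised peroxiredoxins, and Nqo1 reduces quinones.

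The promoters are shown because the antioxidant response element is the sequence through which these genes are known to be linked. The core element TGACNNNGC was searched on both strands in RefSeq promoter windows (GRCm38.p6) of 300 bases, running from 250 before to 50 after a start site. It was found in 12.4% of 32851 windows, and in 17.1% of the 8209 tested genes that had a window. Of the 8 members with a window in the table, 5 held a match, in Nfe2l2, Gclm, Prdx1, Srxn1 and 1 of the 3 windows of Txnrd1. The windows of Keap1, Nqo1 and Gpx4 held no match to these letters. Gclc and Gsr had no entry. A match describes letters and does not show a site in use. The following stretches run 5′ to 3′ on the strand of the gene, with the match in capitals, which is the reverse complement of the core element in Gclm, Prdx1 and Txnrd1.
Nfe2l2, chr2:75704879-75704913, minus strand: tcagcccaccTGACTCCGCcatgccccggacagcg
Gclm, chr3:122245407-122245447, plus strand: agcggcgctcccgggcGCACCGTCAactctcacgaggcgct
Prdx1, chr4:116685450-116685490, plus strand: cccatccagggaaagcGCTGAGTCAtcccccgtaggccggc
Txnrd1, chr10:82859098-82859138, plus strand: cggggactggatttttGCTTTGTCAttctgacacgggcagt

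The matches lay 240 bases before the start site in Nfe2l2, 134 in Gclm, 133 in Prdx1 and 92 before the second listed start in Txnrd1. The match of Srxn1 lay 28 bases after its start, within the transcript, and its stretch is not printed. Of the 5 genes with a match, 3 were lower with risperidone (Nfe2l2, Prdx1 and, next to the threshold, Txnrd1) and 2 were not called (Gclm and Srxn1), where 32.2% of all tested genes were lower. Of the 3 whose windows held no match, Gpx4 and Nqo1 were higher and Keap1 was not called. With so few genes these counts say nothing about the element.

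After risperidone the mRNA of the regulator Nfe2l2 fell by 48.8%, and the changes of the other 9 genes were smaller. At an adjusted p under 0.05, 4 of the 10 genes were lower (Nfe2l2, Prdx1, Gclc and Txnrd1) and 2 were higher (Gpx4 and Nqo1). The test was edgeR's quasi-likelihood test on the estimated counts, two-sided, with the Benjamini-Hochberg method over the 10243 genes whose mean over the 4 libraries reached 1 FPKM, and all 10 genes passed that limit. Changes were common in these libraries, since 64.3% of all tested genes were called, 32.1% as higher and 32.2% as lower. The 10 genes therefore changed at a rate close to that of the whole transcriptome, and the median log2 fold change (risperidone over DMSO) was -0.06 for them and 0.00 for all tested genes. These counts depended on single libraries, as did the number called over all tested genes. They were again 4 lower and 2 higher without risperidone replicate 2, but 3 lower and 1 higher without DMSO replicate 1, and 2 lower and 1 higher without DMSO replicate 2 and also without risperidone replicate 1. The size and the calls of the smaller changes depended on the scale. Deposited TPM values, which sum to the same total in each library, moved the median of all genes to -0.22. On that scale 8 of the 10 genes were called lower and 0 higher, beside 5292 lower and 1536 higher of all 10243 tested genes. Only Keap1 changed sign there. The CPM after TMM normalization did not overlap between the treatments for 7 of the 10 genes, 2 higher and 5 lower, against 82.9% of all tested genes, 41.2% higher and 41.7% lower. In this test no member passed both the adjusted p and a fold of 2, though Nfe2l2 did with library size only (-1.06), with limma on FPKM (-1.04), TPM (-1.19) or quantile-normalised values (-1.03) and without risperidone replicate 2 (-1.02). In the edgeR test 2.61% of all tested genes passed both limits upward and 3.91% downward.

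**Figure D1:**
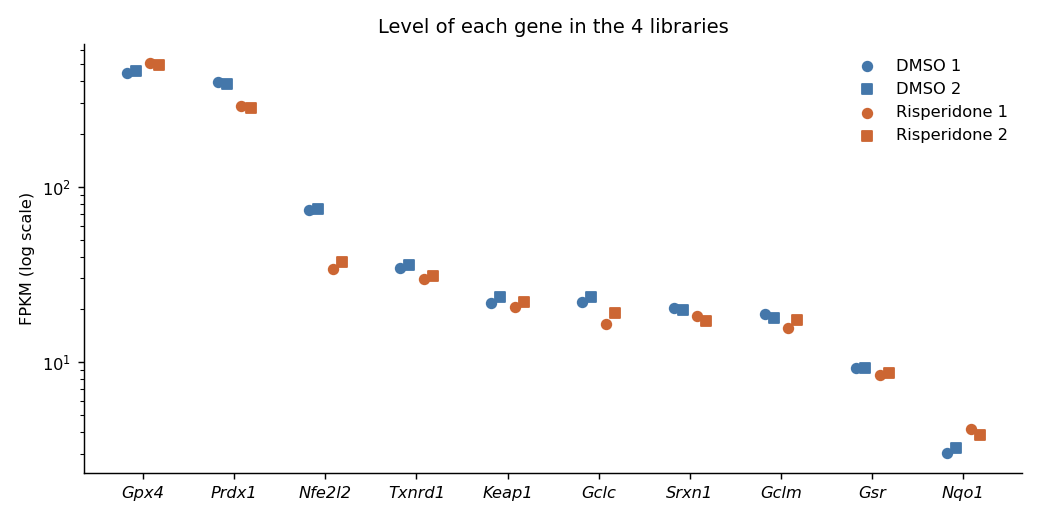
Level of the 10 genes in each library, in FPKM on a log axis, ordered by mean level, with DMSO libraries in blue, risperidone libraries in orange, circles for replicate 1 and squares for replicate 2. Gpx4 and Prdx1 stand far above the rest, and the gap between treatments is widest for Nfe2l2.

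Nfe2l2 (NCBI Gene 18024, chr2:75675513-75704641, minus strand, in GENCODE M21 on GRCm38) had 74.1 and 74.3 FPKM in the DMSO libraries and 34.0 and 37.2 FPKM in the risperidone libraries. The groups were far apart and the 2 DMSO pools almost equal. Its log2 fold change was -0.96 (standard error 0.0521, 95% interval -1.08 to -0.85, edgeR adjusted p = 1.2e-07), lower than that of all but 4.34% of the tested genes. It was called in all 15 alternatives, with log2 fold changes from -1.19 to -0.91, and was -1.02 without risperidone replicate 2.

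Keap1 (NCBI Gene 50868, chr9:21229730-21239361, minus strand) had 21.7 and 23.6 FPKM with DMSO and 20.7 and 22.1 FPKM with risperidone. Its libraries overlapped between treatments, and the log2 fold change was 0.01 with a 95% interval of -0.13 to 0.15 (edgeR adjusted p = 0.893). On the TPM scale its log2 fold change was -0.22 (limma adjusted p = 0.0249), the same shift as that of the median gene. Within a library, the ratio of Keap1 to Nfe2l2 FPKM was 0.292 and 0.318 with DMSO and 0.609 and 0.595 with risperidone, so there were fewer Nfe2l2 transcripts per Keap1 transcript after risperidone. Such a ratio does not depend on how libraries are scaled. GENCODE lists Gm16754 on the opposite strand of Keap1, and whether the counting used strand is not given in the sources used here.

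**Figure D2:**
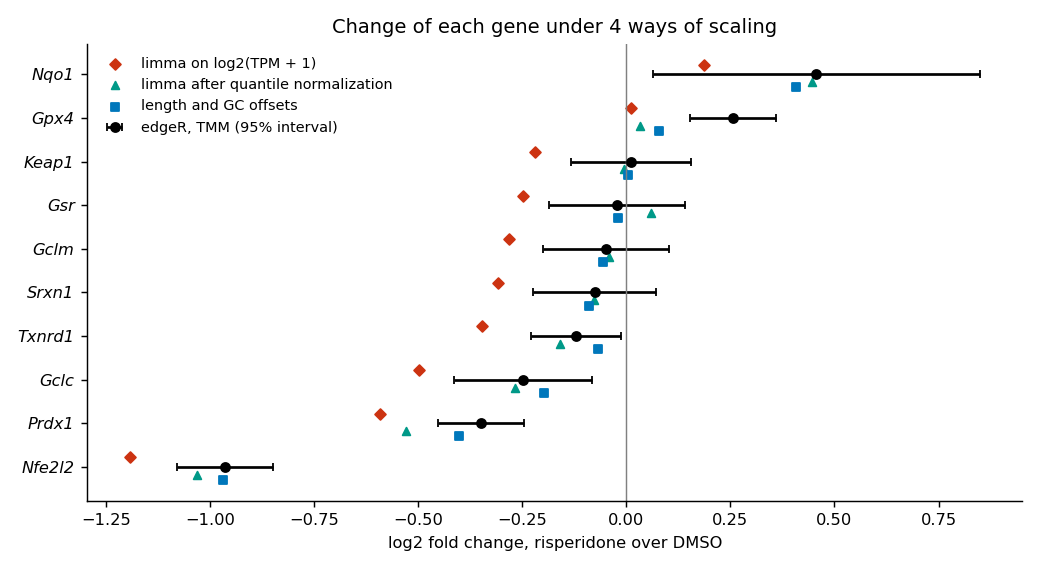
Log2 fold change of each gene, risperidone over DMSO, with black points and 95% intervals from edgeR after TMM normalization (n = 2 libraries per group) and coloured points from 3 other ways of scaling. Nfe2l2 and Prdx1 lie below 0 on all 4 scales, Gpx4 falls to nearly 0 on the other 3, and the TPM points lie to the left of the others for all 10 genes.

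Among the genes of glutathione, the catalytic subunit Gclc fell while the modifier subunit Gclm and the reductase Gsr were not called, and Gpx4 rose. Gclc (NCBI Gene 14629, chr9:77754535-77794485, plus strand) had 22.1 and 23.5 FPKM with DMSO and 16.5 and 19.0 FPKM with risperidone. The groups did not overlap, but the risperidone pools differed from each other by 3.11 times the counting error, the most of the 10 genes. The log2 fold change of Gclc was -0.25 (standard error 0.0752, edgeR adjusted p = 0.0133). It was -0.35 without risperidone replicate 2 and -0.15 without risperidone replicate 1, where the adjusted p was 0.0509, and the call was also lost without DMSO replicate 2 (adjusted p = 0.0527) and without the limit on low values (0.0532).

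Gclm (NCBI Gene 14630, chr3:122245557-122270732, plus strand) had 18.7 and 17.8 FPKM with DMSO and 15.6 and 17.4 FPKM with risperidone. After TMM normalization its libraries overlapped between treatments, and the log2 fold change was -0.05 with a 95% interval of -0.20 to 0.10. The 2 subunits form a single enzyme, and the ratio of Gclc to Gclm FPKM was 1.18 and 1.32 with DMSO and 1.06 and 1.09 with risperidone. That ratio was lower in both risperidone libraries than in either DMSO library, although the gap between groups was smaller than the gap between the DMSO libraries. GENCODE places the pseudogene Gm6061 and the transcript Gm17494 within the span of Gclm.

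Gsr (NCBI Gene 14782, chr8:33652523-33698163, plus strand) was the second lowest of the 10 genes, at 9.24 and 9.30 FPKM with DMSO and 8.42 and 8.65 FPKM with risperidone. Its log2 fold change was -0.02 with a 95% interval of -0.19 to 0.14 (edgeR adjusted p = 0.802). Neither Gclm nor Gsr was called in any alternative other than TPM, where their log2 fold changes were -0.28 and -0.25.

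Gpx4 (NCBI Gene 625249, chr10:80047166-80056439, plus strand) was the most abundant of the 10 genes, with 442 and 454 FPKM in the DMSO libraries and 504 and 493 FPKM in the risperidone libraries. The groups did not overlap, and the log2 fold change was 0.26 (standard error 0.0467, 95% interval 0.15 to 0.36, edgeR adjusted p = 0.000619). Gpx4 was called higher in 12 of the 15 alternatives, among them library size only (0.16, edgeR adjusted p = 0.00996) and limma on FPKM (0.15, adjusted p = 0.0256), and lost its call in the 3 that follow. On the TPM scale Gpx4 had 916 and 931 in the DMSO libraries and 922 and 939 in the risperidone libraries, which overlap, and its log2 fold change there was 0.01 (limma adjusted p = 0.845). Quantile normalization gave 0.03 (limma adjusted p = 0.471). Over all tested genes the fold change went with transcript length, with a median log2 fold change of 0.12 in the 2049 shortest and -0.11 in the 2049 longest. Gpx4 has an effective length of 827 bases, and when length and GC content entered the fit as offsets its change was 0.08 (edgeR adjusted p = 0.0845).

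Among the genes of the thioredoxin system, Prdx1 fell, Txnrd1 fell slightly and Srxn1 was not called. Prdx1 (NCBI Gene 18477, chr4:116685544-116700822, plus strand) had 393 and 383 FPKM with DMSO and 287 and 282 FPKM with risperidone. The groups were well separated and the pools of each group close together. The log2 fold change was -0.35 (standard error 0.0470, 95% interval -0.45 to -0.25, edgeR adjusted p = 6.96e-05), a decrease of 21.5%, and it was -0.33 without risperidone replicate 2. Over all 15 alternatives it was called, with log2 fold changes from -0.59 to -0.33. Prdx1 is a short transcript, of 1284 bases in effective length, and the same offsets gave it a change of -0.40. Gpx4 and Prdx1, both peroxidases, together made up 80.2% to 84.3% of the summed FPKM of the 10 genes, and their ratio within a library (Gpx4 to Prdx1) was 1.12 and 1.18 with DMSO and 1.76 and 1.75 with risperidone.

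**Figure D3:**
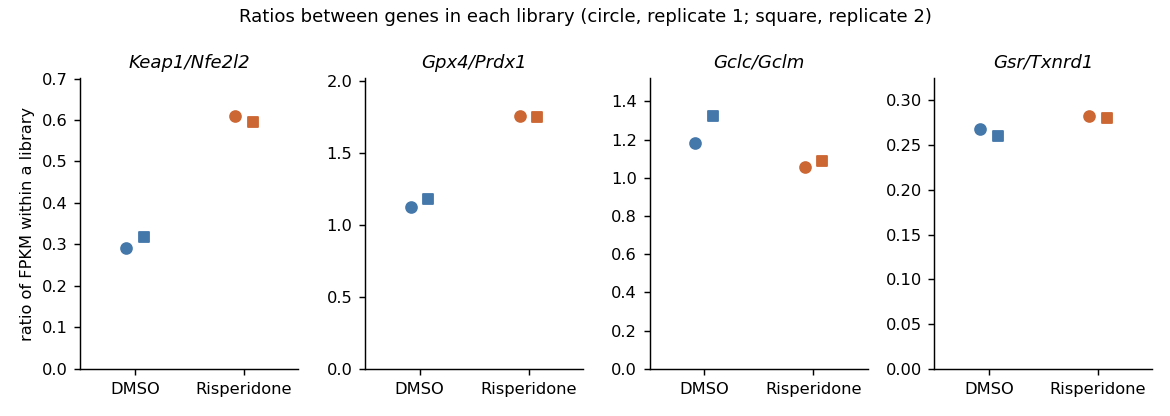
Ratios of FPKM between pairs of genes within each library, on linear axes from 0, for DMSO (blue) and risperidone (orange), with circles for replicate 1 and squares for replicate 2. The ratios of Keap1 to Nfe2l2 and of Gpx4 to Prdx1 are higher in both risperidone libraries by more than the distance between replicates, and Gsr to Txnrd1 moves little.

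Txnrd1 (NCBI Gene 50493, chr10:82833951-82897712, plus strand) had 34.4 and 35.8 FPKM with DMSO and 29.8 and 30.9 FPKM with risperidone. The groups did not overlap, but the log2 fold change of -0.12 (standard error 0.0487) was small and its edgeR adjusted p of 0.0489 lay next to the threshold. The call was lost in 8 of the 15 alternatives, among them DESeq2 (adjusted p = 0.193) and the removal of DMSO replicate 1 (0.186), DMSO replicate 2 (0.407) or risperidone replicate 1 (0.124). GENCODE places Eid3 within the span of Txnrd1 on the same strand, and Gm38560 and Gm47073 on the opposite strand.

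Srxn1 (NCBI Gene 76650, chr2:152105516-152111376, plus strand) had 20.3 and 19.7 FPKM with DMSO and 18.4 and 17.1 FPKM with risperidone. Its normalised counts overlapped between treatments, at 52.7 and 51.0 CPM against 51.2 and 47.2 CPM. The log2 fold change was -0.08 with a 95% interval of -0.22 to 0.07 (edgeR adjusted p = 0.340). Srxn1 was lower with an adjusted p under 0.05 only where the median of all genes also fell, with library size as the only scaling (-0.17), with limma on FPKM and on the TPM scale (-0.31).

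Nqo1 (NCBI Gene 18104, chr8:107388225-107403206, minus strand) was the lowest of the 10 genes, with 70 and 73 counts in the DMSO libraries and 96 and 88 counts in the risperidone libraries. In FPKM these were 3.02 and 3.24 against 4.16 and 3.86, without overlap. The log2 fold change of 0.46 had a wide 95% interval of 0.06 to 0.85, and its edgeR adjusted p was 0.0425. The call was lost in 8 of 14 alternatives, among them DESeq2 (adjusted p = 0.178), the offsets (0.0617) and the removal of DMSO replicate 1 (0.215), DMSO replicate 2 (0.116) or risperidone replicate 1 (0.112), while the log2 fold change stayed between 0.19 and 0.51.

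The levels of the 10 genes ran from 3.02 to 504 FPKM over the 4 libraries. With DMSO the order by mean FPKM was Gpx4, Prdx1, Nfe2l2, Txnrd1, Gclc, Keap1, Srxn1, Gclm, Gsr and Nqo1, and only the neighbours Gclc and Keap1 overlapped. With risperidone Gclc moved below Keap1 and Srxn1, and Srxn1, Gclc and Gclm overlapped one another. Nfe2l2 kept its place in the order but came close to Txnrd1, at 34.0 and 37.2 FPKM against 29.8 and 30.9 FPKM. In total the 10 genes took 0.141% and 0.142% of all counts with DMSO and 0.119% and 0.120% with risperidone. Estimated counts of all 10 genes were whole numbers in all 4 libraries. Between the 2 pools of a group, 0 of the 10 genes differed by more than 2 times the counting error with DMSO and 2 did with risperidone, Gclc and Nfe2l2.

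Around these genes, 9 lists held 131 further genes of the same pathways, 128 of them in the table and 111 above the limit for testing. Of the 111, 45 were higher and 33 lower, or 70.3% called against 64.3% of all genes, and the median log2 fold change was 0.08. The lists were written from general knowledge with earlier results of these data known. On the TPM scale the same genes gave 24 higher and 54 lower, where 1536 of all 10243 tested genes were higher and 5292 lower. Genes given below as not called were so in the edgeR test, and on the TPM scale Slc3a2, Gpx1, Txn1, Prdx2, Prdx5, Sod1, Cul3 and Bach1 among them were lower at an adjusted p under 0.05, with log2 fold changes from -0.29 to -0.13. Of the 78 genes called, 73 were called in the same direction without risperidone replicate 2.

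**Figure D4:**
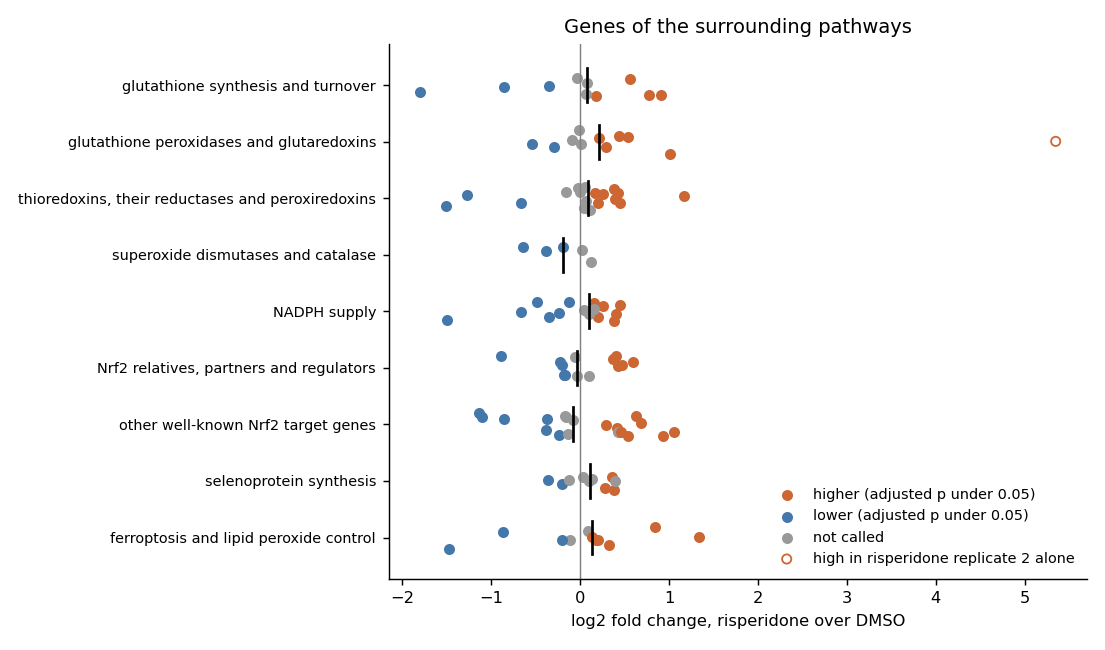
Log2 fold change of each tested gene in 9 pathway lists, risperidone over DMSO, with genes called higher in orange, called lower in blue, not called in grey and the median of each list as a black line. Each list has genes on both sides of 0, and the open circle is Gpx3 (5.35), which is high in risperidone replicate 2 alone.

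In glutathione synthesis and turnover, 4 of 10 tested genes were higher and 3 lower, with a median log2 fold change of 0.07. The largest change was in Slc7a11, the cystine importer that supplies cysteine for glutathione, which had 2.27 and 2.17 FPKM with DMSO and 0.50 and 0.69 FPKM with risperidone. Its estimated counts were not all whole numbers. The log2 fold change of Slc7a11 was -1.79 (standard error 0.153, edgeR adjusted p = 2.44e-06), and it was smaller, though called, by limma on log2(FPKM + 1) (-1.02) and after quantile normalization (-0.87). Without risperidone replicate 2 it was -2.04. Slc3a2, the heavy chain that Slc7a11 pairs with, was not called (-0.03), and the ratio of Slc7a11 to Slc3a2 FPKM was 0.0238 and 0.0216 with DMSO and 0.00513 and 0.00809 with risperidone. The glutathione-degrading enzymes went in opposite directions, Chac1 up (0.91) and Chac2 down (-0.85). Gss, which completes glutathione, was called higher (0.18, edgeR adjusted p = 0.0281), but not with DESeq2 (adjusted p = 0.233) or without risperidone replicate 2 (0.0915), and was at -0.06 on the TPM scale.

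Among the other glutathione peroxidases, glutaredoxins and glyoxalases, 6 of 11 tested genes were higher and 2 lower (72.7% called), with a median of 0.21. Gpx3, high in a single library as described at the end, is among the 6. Hagh, a glyoxalase that frees glutathione, rose from 48.2 ± 1.31 to 90.5 ± 9.36 FPKM (SD, n = 2 libraries; log2 fold change 1.01), and Esd, an esterase of glutathione adducts, rose by 0.54. Gpx7, a peroxidase of the endoplasmic reticulum, fell (-0.54), a call lost with DESeq2 (adjusted p = 0.0767) and without DMSO replicate 1 (0.132), which leaves 1 gene lower in the list. Gpx1, the cytosolic peroxidase, was at 0.01 and was not called.

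Among the other thioredoxins, reductases, peroxiredoxins, sestrins and methionine sulfoxide reductases, 8 of 18 tested genes were higher and 3 lower, with a median of 0.09. Of these 18, 61.1% were called. Txnip, which binds and inhibits thioredoxin, was far more abundant than any of the 10 genes, at 952 and 944 FPKM with DMSO and 2115 and 1884 FPKM with risperidone (log2 fold change 1.17, edgeR adjusted p = 9.2e-08). Txn1, the thioredoxin that Txnrd1 reduces, was not called (0.05, adjusted p = 0.393) and was negative with library size as the only scaling (-0.04), TPM (-0.19), quantile normalization (-0.11) and the offsets (-0.06). Of the other peroxiredoxins, the mitochondrial Prdx3 rose (0.42) and Prdx6 rose (0.26, but 0.02 on the TPM scale), while Prdx2 (0.11), Prdx4 (0.07) and Prdx5 (0.05) were not called. Without risperidone replicate 2, Prdx2 was higher (0.17, edgeR adjusted p = 0.00869). With the offsets Prdx5 was lower (-0.21, edgeR adjusted p = 0.00343), as Prdx1 was. Sesn2 (-1.51) and Sesn3 (-1.27), sestrins that respond to stress, fell most in the list.

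Of the superoxide dismutases and catalase, 3 of 5 tested genes were lower and 0 higher at an adjusted p under 0.05, with a median of -0.19. The mitochondrial Sod2 fell from 37.7 ± 1.33 to 22.7 ± 0.346 FPKM (SD, n = 2 libraries; log2 fold change -0.64). The extracellular Sod3 (-0.38) and Cat, which breaks down hydrogen peroxide (-0.19), were called with adjusted p values of 0.0264 and 0.0419. Both calls, though not that of Sod2, were lost with DESeq2 (0.0533 and 0.0874) and without risperidone replicate 1 (0.172 and 0.203). Without risperidone replicate 2 both were larger, at -0.60 for Sod3 (edgeR adjusted p = 0.00108) and -0.28 for Cat (0.00139). Sod3 lost its call also without DMSO replicate 1 (0.247), and Cat without DMSO replicate 2 (0.268). The cytosolic Sod1 was not called (0.12), and was higher without risperidone replicate 2 (0.17, edgeR adjusted p = 0.0119) and lower with the offsets (-0.10, edgeR adjusted p = 0.0356).

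For NADPH, the reductant that Gsr, Txnrd1 and Nqo1 use, 6 of 15 tested genes were higher and 6 lower, with a median of 0.10. The largest changes were decreases, in the isocitrate dehydrogenase Idh1 (-1.50), the malic enzyme Me2 (-0.67) and Pgd of the pentose phosphate pathway (-0.49). Of these, Me2 works mainly with NAD and not NADP. G6pdx, the entry enzyme of that pathway, also fell (-0.23), whereas its later enzymes Pgls (0.44) and Tkt (0.38) and the malic enzyme Me1 (0.41) rose.

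Of the relatives, partners and regulators of Nrf2, 5 of 13 tested genes were higher and 5 lower (76.9% called), with a median of -0.03. Without DMSO replicate 1, and also without DMSO replicate 2, only 2 were lower and 4 were higher. Nfe2l1, the closest relative of Nfe2l2 by function and the more abundant of the pair, fell by less than Nfe2l2, with a log2 fold change of -0.18 (edgeR adjusted p = 0.00809). The small Maf genes went both ways, with Maff (0.60) and Mafk (0.43) higher and Mafg (-0.23) lower, and these signs were the same with TPM, quantile normalization and the offsets. The calls of Maff and Mafk were lost with TPM (0.23, adjusted p = 0.125, and 0.17, 0.0797) and that of Mafg with quantile normalization (-0.07, 0.285), all by limma. The call of Maff was also lost with DESeq2 (adjusted p = 0.0611) and without either DMSO library (0.0662 and 0.0527) or risperidone replicate 1 (0.0570). Sqstm1, which can draw Keap1 away from Nrf2, rose (0.38). Cul3, the ligase scaffold, and Bach1, the repressor that competes for the same elements, were not called (-0.06 and -0.03). Cul3 was lower with library size only (-0.15, edgeR adjusted p = 0.0183) and after quantile normalization (-0.16, limma adjusted p = 0.0174). Trim21 (-0.89) and Pgam5 (0.47), which both bind proteins of this pathway, changed most beside Maff. Without risperidone replicate 2 Trim21 was at -0.71.

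Of the other well-known Nrf2 target genes, 8 of 19 tested were higher and 6 lower (73.7% called), with a median of -0.08. Hmox1, which degrades heme, had 324 and 347 FPKM with DMSO and 150 and 143 FPKM with risperidone, a log2 fold change of -1.10. The ferritin chains diverged, with Ftl1 up (1.05) and Fth1 down (-0.23), so that the ratio of Ftl1 to Fth1 FPKM went from 0.455 and 0.445 to 1.14 and 1.06. The estimated counts of Ftl1 were not all whole numbers. Aox1, an aldehyde oxidase, fell (-1.13, and -1.36 without risperidone replicate 2). Blvrb, a biliverdin reductase (0.93), Akr1b3 (0.68), Akr1b8 (0.46) and the exporter Abcc1 (0.63) rose. Genes of this list thus went in both directions.

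Gpx4 and Txnrd1 are selenoproteins, which need a dedicated translation machinery. Of its 10 tested genes, 3 were higher and 2 lower, with a median of 0.12. Sars, a seryl-tRNA synthetase (0.38), and Pstk, a kinase that acts on the charged tRNA (0.36), rose, and Secisbp2, which recognises the selenocysteine signal, fell (-0.37). The call of Pstk was lost with DESeq2 (adjusted p = 0.0993) and without either DMSO library or risperidone replicate 1. That of Secisbp2 was lost without DMSO replicate 2. The other gene called lower, Sephs1 (-0.20), lost its call with DESeq2 (adjusted p = 0.091). It was also lost with quantile normalization (limma adjusted p = 0.106) and with the offsets (edgeR adjusted p = 0.125).

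Gpx4 is best known as a guard against ferroptosis, an iron-dependent death by lipid peroxidation. Of 11 tested genes linked to it, 6 were higher and 3 lower, with a median of 0.14. Aifm2, which protects membranes beside Gpx4, rose from 19.0 and 18.6 FPKM to 43.5 and 43.8 FPKM (log2 fold change 1.34). Por, a reductase that can feed lipid peroxidation, rose by 0.84. Tfrc, the transferrin receptor that brings iron into the cell, fell (-1.47), as did the iron exporter Slc40a1 (-0.87). Without risperidone replicate 2 they were at -1.65 and -0.99. Acsl4, which loads membranes with oxidisable fatty acids, was not called (0.09), and was higher with the offsets (0.21, edgeR adjusted p = 0.000715). The counts of Aifm2 were not all whole numbers.

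Among the 10 genes and the pathway lists, 6 genes had at least 20 counts in risperidone replicate 2 and over 4 times the level of any other library. They were named after their values were seen, and none of them is among the 10 genes. Gpx3, a secreted glutathione peroxidase abundant in kidney, had 70 and 32 counts with DMSO, 35 in risperidone replicate 1 and 3851 in risperidone replicate 2. Its log2 fold change of 5.35 (edgeR adjusted p = 0.00690) became -0.45 (adjusted p = 0.320) without risperidone replicate 2, and was not called by limma on FPKM (2.73, adjusted p = 0.177). The other genes were Ggt1 (109 counts in that library and 0 to 4 in the others), Anpep (25 against 3 to 4), Aldh1l1 (77 against 4), Abcc2 (55 against 0 to 1) and Cyp2a5 (81.5 against 0 to 1). In that same library the kidney markers Kap, Slc34a1 and Umod had 1048, 681 and 385 counts, against 16 or fewer in each other library. Without it, Gclc was lower (-0.35) and Nqo1 higher (0.51), as with all libraries.

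**Figure D5:**
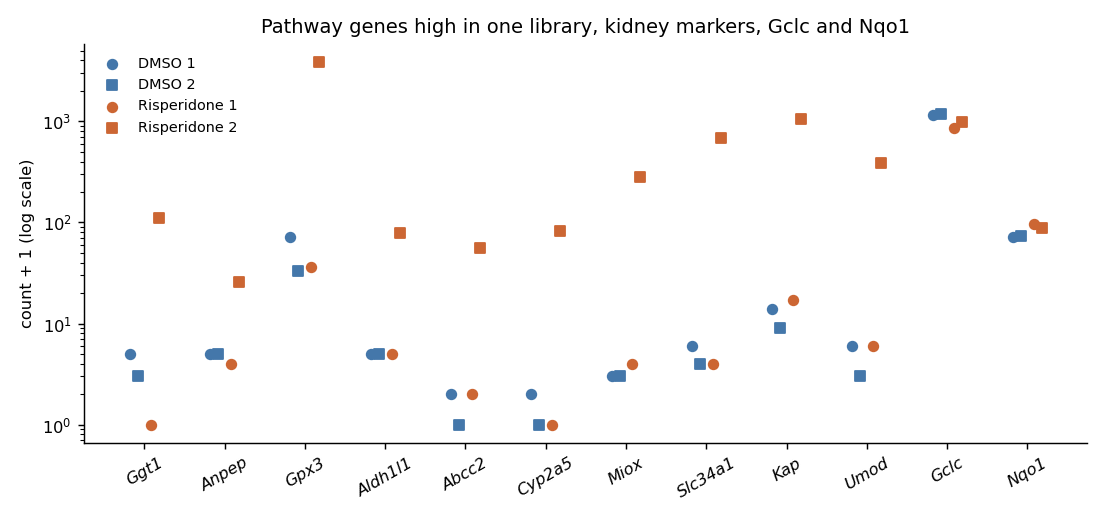
Estimated count plus 1 in each library, on a log axis, for the 6 pathway genes high in risperidone replicate 2, for 4 kidney markers and for Gclc and Nqo1, with DMSO in blue, risperidone in orange, circles for replicate 1 and squares for replicate 2. The orange square stands far above the other libraries for the first 10 genes and beside them for Gclc and Nqo1.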

How the data were processed

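The submitters' processing notes name Bowtie2, RSEM, DESeq2 and GRCm38.p6, with versions not given in the sources used here. The deposited table holds estimated counts, FPKM calculated by the authors, and TPM, which the authors scaled to the same sum per library. The 6 columns of group means were not used. Members and lists were chosen with earlier results of these data known. Counts were rounded and tested in R 4.3.3 with edgeR 4.0.16 after TMM normalization, over genes averaging 1 FPKM or more. The standard error was taken as |log2 fold change| divided by √F. Named genes were the 10 members, up to 3 called genes per list with the largest change and no overlap, and Hmox1, Txn1, Slc7a11 and Txnip. Other list genes and Gpx3 were named after their values were seen. Alternatives used DESeq2 1.42.0, limma 3.58.1, other scalings and filters, each library left out, a term for replicate number and, chosen after seeing the data, offsets for length (from counts and FPKM) and GC content (GENCODE M21). The tests were tried on simulated data. Tables and figures used Python 3.11.15, pandas 2.3.3 and matplotlib 3.10.9.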

Additional observations from a re-analysis of the deposited data

How the results depend on the processing

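The falls of Nfe2l2 and Prdx1 kept their direction and call in all 15 alternatives. The members called higher, 2, became 1 with no filter, at a limit of 5 FPKM (where Nqo1 was not tested), with library size only, with DESeq2 and with quantile normalization, and 0 with TPM, with the offsets and at a 2-fold limit. The members called lower, 4, became 2 with no filter, 8 with TPM and 0 at the 2-fold limit. Pathway genes called higher, 45, became 24 with TPM and 5 at the 2-fold limit, and those called lower, 33, became 54 and 7. With each library left out, 1 to 2 members were higher and 2 to 4 lower, and 37 to 47 pathway genes were higher and 25 to 32 lower. The cause of these moves was not tested. Over all tested genes, 49.9% of calls were higher, against 22.5% with TPM, 37.9% with library size only and 37.8% with limma on log2(FPKM + 1), and the medians of all genes were -0.22, -0.09 and -0.08 on those scales.

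Genes near 0 changed sign. Keap1 was -0.0137 at a limit of 5 FPKM, -0.0825 with library size only, -0.0779 with limma on log2(FPKM + 1), -0.0810 with a pseudocount of 0.1, -0.22 with TPM, -0.0063 with quantile normalization, and between -0.0406 and 0.0639 with a library left out. Gclm was between -0.125 and 0.0244 with a library left out, and Gsr was 0.0585 with quantile normalization. Txn1 was -0.0395 with library size only, -0.0462 and -0.0465 with limma at a pseudocount of 1 and 0.1, -0.19 with TPM, -0.11 with quantile normalization and -0.0567 with the offsets. Gpx3 was between -0.45 (without risperidone replicate 2) and 6.33 with a library left out.

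The replicate numbers of the titles gave no sign of pairing, since the differences between replicates correlated at -0.0698 between the groups. A single difference per group cannot show that the libraries were unpaired. With the replicate number as a block, 3292 genes were higher and 3321 lower in all, and 2 members were higher and 3 lower, Txnrd1 losing its call. Depth limits Nqo1 most, at under 100 counts per library.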
